A study of Mus musculus with 10 samples.

Results

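The T cell receptor complex and its co-stimulation were followed through 10 genes in RNA-seq of mouse lung, namely Cd3e, Cd3d, Cd3g, Cd4, Cd8a, Lck, Zap70, Icos, Ctla4 and Foxp3. They were taken by their symbols from the deposited expression table and make up 10 of its 24394 gene symbols and 19 of its 66548 transcript rows. The lungs came from young adult female BALB/c mice. Saline mice (n = 3) received saline only. OVA mice (n = 3) were sensitized by intraperitoneal ovalbumin with an aluminium adjuvant and challenged with intranasal ovalbumin under isoflurane, a model of allergic asthma, and by the methods of the study the sensitized mice that were not treated received vehicle by mouth. Herb mice (n = 4) underwent the ovalbumin protocol and were given an ethanol extract of Descurainia sophia seeds (DSE) by mouth. OVA and Herb thus share sensitization, challenge and anesthesia, and differ in the oral treatment. The labels number the libraries within a group but name no animal, so that the p-values below measure the spread between these libraries.

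T cells recognize a peptide on an antigen presenting cell through the T cell receptor, whose own chains have hardly any intracellular part. The signal is carried by the CD3 chains, which are phosphorylated by Lck, a kinase held at the co-receptors CD4 and CD8, and then bound by the kinase ZAP-70. Full activation also takes co-stimulation through CD28 and its relative ICOS, whereas CTLA-4 restrains it, and regulatory T cells are defined by the transcription factor Foxp3. In allergic airway inflammation, helper T cells carrying CD4 are known to drive the response to the allergen.

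The 3 CD3 genes lie together on chromosome 9 (GRCm38.p6). Cd3g (44969572 to 44980431) and Cd3d (44981769 to 44987052) are transcribed away from each other, with 1355 bases between the RefSeq start sites, and Cd3e (44998735 to 45009663) follows with its start 27825 bases beyond that of Cd3d. The other genes lie at chromosome 6, 124864693 to 124888247 (Cd4) and 71373427 to 71379171 (Cd8a), at chromosome 4, 129548344 to 129573641 (Lck), at chromosome 1, 36761798 to 36782821 (Zap70), 60909025 to 60915832 (Ctla4) and 60960773 to 61000322 (Icos), and at chromosome X, 7579676 to 7595243 (Foxp3). Promoter windows from RefSeq (GRCm38.p6) were found for 8 of the 10 genes, all but Cd4 and Icos, with 12 windows in all. The 250 bases before the start are shown 5′ to 3′ for the CD3 genes, whose levels moved together, and for both starts of Lck, whose transcripts were shared out differently in 1 library. Capitals mark the E-box CANNTG and the RUNX core TGTGGT, searched on both strands.
Cd3g (chr9:44980432-44980681, minus strand): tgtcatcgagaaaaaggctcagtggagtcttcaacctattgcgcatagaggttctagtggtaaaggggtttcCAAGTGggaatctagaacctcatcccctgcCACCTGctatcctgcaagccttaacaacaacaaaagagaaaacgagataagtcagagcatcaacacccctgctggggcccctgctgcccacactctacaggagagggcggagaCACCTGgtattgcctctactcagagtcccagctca
Cd3d (chr9:44981536-44981785, plus strand): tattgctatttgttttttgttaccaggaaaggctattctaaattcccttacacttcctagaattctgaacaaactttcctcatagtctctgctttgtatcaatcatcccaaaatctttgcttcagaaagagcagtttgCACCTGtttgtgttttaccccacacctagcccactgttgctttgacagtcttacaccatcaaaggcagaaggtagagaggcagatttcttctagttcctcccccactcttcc
Cd3e (chr9:45009612-45009861, minus strand): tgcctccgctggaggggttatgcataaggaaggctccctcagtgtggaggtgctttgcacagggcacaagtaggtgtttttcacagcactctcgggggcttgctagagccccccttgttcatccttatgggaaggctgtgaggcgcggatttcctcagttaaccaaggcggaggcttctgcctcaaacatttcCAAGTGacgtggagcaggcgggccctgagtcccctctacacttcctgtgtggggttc
Lck downstream start (chr4:129558373-129558622, minus strand): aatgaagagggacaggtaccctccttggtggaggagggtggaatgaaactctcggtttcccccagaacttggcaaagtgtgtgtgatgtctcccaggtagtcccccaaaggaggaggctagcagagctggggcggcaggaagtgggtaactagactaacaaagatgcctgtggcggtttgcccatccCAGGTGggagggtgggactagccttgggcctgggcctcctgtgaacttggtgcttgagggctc
Lck upstream start (chr4:129573642-129573891, minus strand): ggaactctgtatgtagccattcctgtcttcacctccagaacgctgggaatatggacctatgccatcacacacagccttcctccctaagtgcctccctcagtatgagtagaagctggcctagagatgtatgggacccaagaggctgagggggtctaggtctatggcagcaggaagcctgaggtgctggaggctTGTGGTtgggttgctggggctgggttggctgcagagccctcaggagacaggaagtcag

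The E-box was found once in the windows of Cd3d and Cd3e, at 112 and 57 bases before the start, and at 178, 148 and 35 bases before the start of Cd3g. At least 1 E-box was present in 11 of the 12 windows of the 10 genes, and in 66.2% of all 32851 promoter windows of the same length. The RUNX core was present in 2 of the 12 windows, one of them the upstream window of Lck at 58 bases before the start, and in 14.0% of all windows. The ETS core AGGAAG was found in 8 of the 12 windows and in 29.5% of all windows. The TATA box TATAAA was found in 1 of the 12 windows and in 12.4% of all windows. These motifs are matches of letters, and an E-box can overlap other motifs.

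The values are FPKM (fragment counts scaled to transcript length and to the mapped fragments of the library), summed over the transcript rows of a gene. Estimated depth was 14900000 to 21400000 fragments in Saline, 20000000 to 29300000 in OVA and 14700000 to 21300000 in Herb. The summed FPKM of protein-coding RefSeq rows (those with NM_ identifiers) was 133354 to 147533 in Saline, 39136 to 52995 in OVA and 74117 to 98580 in Herb, so the groups did not overlap in this sum. Such a sum is weighted by transcript length and is not a share of fragments. Over all rows it was 640799 to 740376 in Saline, 1131740 to 1194137 in OVA and 725370 to 981515 in Herb. Every comparison of FPKM between groups carries this shift, and fold changes are therefore also given after rescaling each library to its 75th percentile of nonzero rows or to the summed FPKM of the NM_ rows. All 10 genes were low, with group means from 0.210 FPKM for Cd3d in OVA to 2.83 FPKM for Cd3e in Saline. Pan-leukocyte Ptprc was also low and was listed at 0 in Herb replicate 3, so it gives no reliable scale for white blood cells.

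**Figure D1:**
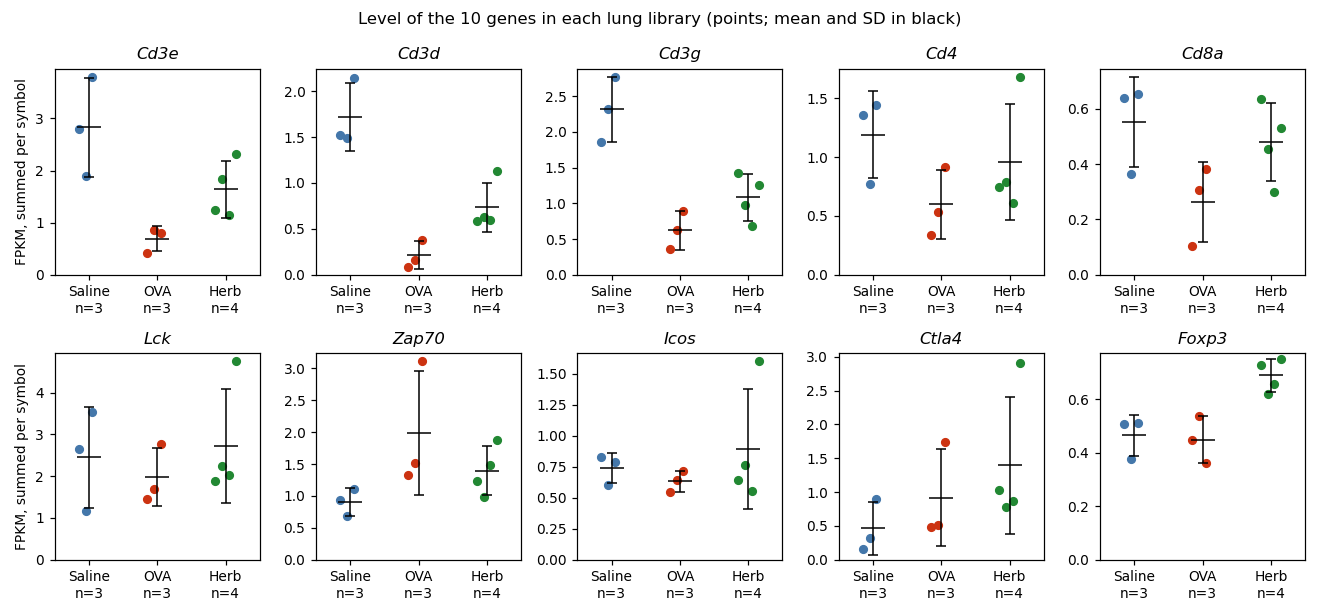
FPKM summed per gene symbol (vertical axis, starting at 0) in each Saline (n = 3), OVA (n = 3) and Herb (n = 4) library, 1 panel per gene, with points for libraries and black bars for mean and SD. All OVA points of Cd3e, Cd3d and Cd3g lie below all Saline points, and Herb replicate 4 is the highest Herb point of Cd3e, Cd3d, Cd4, Lck, Zap70, Icos, Ctla4 and Foxp3.

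In FPKM as deposited, the CD3 chains were lower in OVA than in Saline, as were many other genes. Without overlap of libraries, 41.4% of all genes were lower in OVA than in Saline. In the same way 31.7% were higher in Herb than in OVA and 22.0% lower in Herb than in Saline. Cd3e, which encodes the epsilon chain shared by both CD3 dimers, was measured at 2.79, 1.90 and 3.79 FPKM in Saline, 0.416, 0.856 and 0.809 in OVA and 1.25, 1.84, 1.14 and 2.32 in Herb. Every OVA library was below every Saline library and every Herb library, and Herb overlapped with Saline. Cd3d, the delta chain, was measured at 1.52, 1.49 and 2.14 FPKM in Saline, 0.0873, 0.162 and 0.381 in OVA and 0.586, 0.628, 0.594 and 1.13 in Herb. The 3 groups of Cd3d values did not overlap, with OVA lowest and Saline highest. Cd3g, the gamma chain, was measured at 1.86, 2.32 and 2.77 FPKM in Saline, 0.354, 0.621 and 0.895 in OVA and 1.42, 0.974, 0.676 and 1.26 in Herb. OVA and Herb were below Saline in every library of Cd3g, and Herb replicate 3 lay within the range of OVA.

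Only 4 of the 10 genes, Cd3e, Cd3g, Lck and Zap70, reached the mean of 1 FPKM required for the planned fit over 11205 genes. In that fit on log2(FPKM + 1), which understates changes of low genes, Cd3e changed by -1.16 ± 0.23 (SE) in OVA vs. Saline (limma, adjusted p = 0.00213) and Cd3g by -1.03 ± 0.19 (adjusted p = 0.00142). Cd3g passed the minimum through its Saline values. At this threshold 57.9% of all genes tested were lower and 3.28% higher in OVA, and the median of all genes was -0.75. A fit without a minimum and with a pseudocount of 0.1 was added after the levels had been seen, so that all 10 genes among 20819 were tested. In it 3 of the 10 genes were lower in OVA than in Saline, against 33.4% of all genes, and 0 were higher, against 2.86% of all genes (limma, 4 of the 10 at an unadjusted p under 0.05). The 3 were Cd3d at -2.65 ± 0.40 (adjusted p = 0.000934), Cd3e at -1.88 ± 0.37 (adjusted p = 0.00373) and Cd3g at -1.79 ± 0.36 (adjusted p = 0.00392), while the median of all genes was -0.47. In lung tissue, fewer T cells, less RNA per T cell and the shift of FPKM between the groups cannot be told apart in these values.

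After rescaling, the log2 fold changes of the CD3 genes in OVA were negative on both scales, and the calls depended on the scale. With the 75th percentile the log2 fold change was -2.06 ± 0.41 for Cd3d (limma, adjusted p = 0.00763), -1.17 ± 0.33 for Cd3e (adjusted p = 0.0326) and -1.09 ± 0.33 for Cd3g (adjusted p = 0.0418). On this scale 15.4% of all genes were lower and 9.55% higher. With the summed FPKM of NM_ rows, Cd3d was at -1.45 ± 0.41 (adjusted p = 0.0251), Cd3e at -0.47 ± 0.34 (adjusted p = 0.336) and Cd3g at -0.39 ± 0.31 (adjusted p = 0.367). There 4.71% of all genes were lower and 27.8% higher, and Cd3d was the 1 gene of the 10 called lower. The precision of Cd3d in OVA is small, since its FPKM stands for about 4.1 to 12.3 fragments per library, compared with 36.7 to 71.0 in Saline. Cd3e stands for 17.8 to 28.9 fragments in OVA and Cd3g for 10.6 to 18.3.

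**Figure D2:**
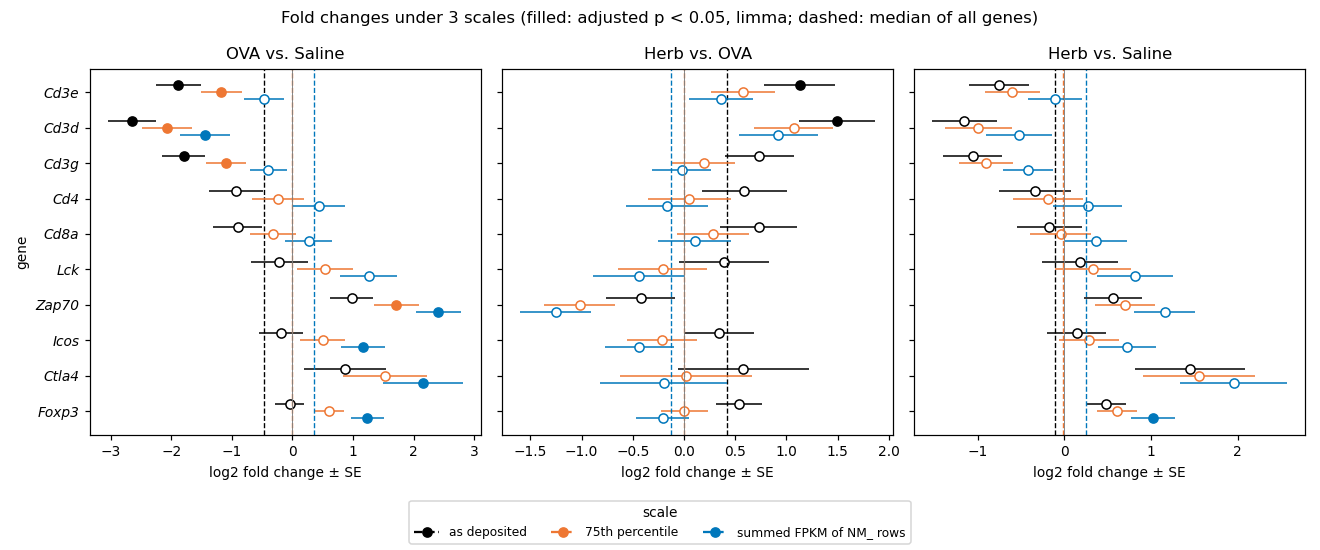
Log2 fold changes (horizontal axis, ± SE) of the 10 genes from the fit without a minimum, for the values as deposited (black), rescaled to the 75th percentile (orange) and rescaled to the summed FPKM of NM_ rows (blue), with filled points for adjusted p under 0.05 and dashed lines for the median of all genes. In OVA vs. Saline, Cd3d is filled under all 3 scales, and Zap70 lies right of 0 under all 3.

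The co-receptors were lower in OVA on average, without passing the test. Cd4 was measured at 1.36, 0.768 and 1.45 FPKM in Saline, 0.337, 0.538 and 0.921 in OVA and 0.749, 0.791, 0.611 and 1.68 in Herb. Cd8a, a chain of the co-receptor of cytotoxic T cells, was measured at 0.638, 0.366 and 0.654 FPKM in Saline, 0.102, 0.308 and 0.382 in OVA and 0.635, 0.456, 0.297 and 0.531 in Herb. For both genes the groups overlapped. In OVA vs. Saline the log2 fold change was -0.93 ± 0.45 for Cd4 (limma, adjusted p = 0.145) and -0.90 ± 0.40 for Cd8a (adjusted p = 0.118) in the fit without a minimum. Both turned positive after rescaling to the NM_ rows, at 0.43 ± 0.43 and 0.27 ± 0.38, and neither passed the test on any of the 3 scales. The ratio of Cd4 to Cd8a depends little on the scale of a library, and with 0.1 FPKM added to both genes it was 1.97, 1.86 and 2.05 in Saline, 2.16, 1.56 and 2.12 in OVA and 1.16, 1.60, 1.79 and 2.83 in Herb. OVA was 0.982-fold of Saline in this ratio (two-sided exact permutation test, p = 1), a difference smaller than the spread within each group.

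Lck overlapped between the groups, and the estimates for Zap70 in OVA lay above Saline on all 3 scales. Lck was measured at 2.66, 1.16 and 3.54 FPKM in Saline, 1.46, 1.70 and 2.77 in OVA and 1.89, 2.25, 2.02 and 4.76 in Herb. Its groups overlapped in every comparison. The log2 fold change of Lck in OVA vs. Saline was -0.17 ± 0.34 in the planned fit (limma, adjusted p = 0.680) and 0.37 after rescaling to the 75th percentile, so its direction depended on the scale. Zap70, the kinase that binds phosphorylated CD3, was measured at 0.939, 0.679 and 1.11 FPKM in Saline, 1.34, 1.52 and 3.11 in OVA and 1.23, 0.990, 1.48 and 1.88 in Herb. Every OVA library was above every Saline library, and Herb overlapped with both. Zap70 was higher in OVA by 0.61 ± 0.23 in the planned fit (adjusted p = 0.0460) and by 0.98 ± 0.36 in the fit without a minimum (adjusted p = 0.0612). After rescaling it was higher by 1.71 ± 0.37 with the 75th percentile (adjusted p = 0.0105) and by 2.41 ± 0.37 with the NM_ rows (adjusted p = 0.00186). Without OVA replicate 3, the highest library, the planned fit gave 0.35 (adjusted p = 0.147). Its planned call was also lost without any 1 of the 3 Saline replicates or without Herb replicate 1 or 3, with adjusted p from 0.0602 to 0.126.

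Counted by overlap of libraries, the result was similar for the CD3 genes. In OVA vs. Saline 3 of the 10 genes were lower in every library, Cd3e, Cd3d and Cd3g, against 41.4% of all genes, and 1 was higher in every library, Zap70, against 5.46% of all genes.

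Co-stimulation and its brake were carried by Icos and Ctla4. Icos was measured at 0.826, 0.601 and 0.788 FPKM in Saline, 0.543, 0.639 and 0.711 in OVA and 0.642, 0.766, 0.557 and 1.60 in Herb. Its groups overlapped, and the log2 fold change in OVA vs. Saline was -0.19 ± 0.36 (limma, adjusted p = 0.730) in the fit without a minimum. Ctla4 was measured at 0.156, 0.327 and 0.902 FPKM in Saline, 0.485, 0.520 and 1.74 in OVA and 1.03, 0.778, 0.873 and 2.91 in Herb. The spread within each group was wide and the groups overlapped, with a log2 fold change of 0.87 ± 0.68 in OVA vs. Saline (adjusted p = 0.370) and 1.45 ± 0.64 in Herb vs. Saline (adjusted p = 0.190). Rescaled to the NM_ rows, Icos was higher in OVA by 1.16 ± 0.36 (adjusted p = 0.0358) and Ctla4 by 2.15 ± 0.66 (adjusted p = 0.0345), the only one of the 3 scales on which either passed the test.

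Foxp3 was set apart by the Herb group. It was measured at 0.507, 0.377 and 0.512 FPKM in Saline, 0.445, 0.536 and 0.362 in OVA and 0.726, 0.618, 0.658 and 0.751 in Herb, all of it on 1 of its 3 transcript rows. Every Herb library was above every Saline and every OVA library, while Saline and OVA overlapped. In the fit without a minimum the log2 fold change was 0.53 ± 0.23 in Herb vs. OVA (limma, adjusted p = 0.127) and 0.49 ± 0.23 in Herb vs. Saline (adjusted p = 0.214), so the difference did not pass the test. Rescaled to the 75th percentile, Herb vs. OVA was at 0.00 ± 0.23 (adjusted p = 1). Rescaled to the NM_ rows it was at -0.21 ± 0.26 (adjusted p = 0.657), whereas OVA vs. Saline was then at 1.23 ± 0.27 (adjusted p = 0.00873) and Herb vs. Saline at 1.03 ± 0.26 (adjusted p = 0.0326). The order of Foxp3 between OVA and Herb therefore rested on the scale. The gene overlaps Ppp1r3f and Ccdc22 on the opposite strand and also Flicr and Gm36995, Cd3e overlaps the antisense gene Gm48719, and whether strand was used in quantification is not given in the sources used here.

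Ratios within a library remove the scale apart from the pseudocount, and set the signalling genes against Cd3e, again with 0.1 FPKM added. Zap70/Cd3e was 0.359, 0.389 and 0.311 in Saline, 2.78, 1.70 and 3.54 in OVA and 0.988, 0.560, 1.27 and 0.819 in Herb. The groups did not overlap, with Herb between the others, and the geometric mean was 7.27-fold higher in OVA than in Saline and 0.341-fold in Herb relative to OVA. Ctla4/Cd3e was 0.0884, 0.213 and 0.258 in Saline, 1.13, 0.648 and 2.03 in OVA and 0.840, 0.451, 0.785 and 1.24 in Herb. It was 6.74-fold higher in OVA and 4.60-fold higher in Herb than in Saline without overlap, and OVA and Herb overlapped. The Ctla4 sum includes a row of 614 bases that was listed at 0 in every Saline library. The longer row, of 1933 bases, overlapped between the groups and was not set against Cd3e alone. In estimated fragments Ctla4 overlapped too, at 4.5 to 35.8 per library in Saline, 18.1 to 46.8 in OVA and 10.9 to 65.3 in Herb. Lck/Cd3e was 0.956, 0.629 and 0.936 in Saline, 3.03, 1.89 and 3.16 in OVA and 1.48, 1.21, 1.71 and 2.01 in Herb, or 3.18-fold higher in OVA than in Saline. Icos/Cd3e was 0.320, 0.350 and 0.228 in Saline, 1.25, 0.773 and 0.892 in OVA and 0.549, 0.446, 0.530 and 0.704 in Herb. It was 3.22-fold higher in OVA than in Saline and 0.578-fold in Herb relative to OVA, with no overlap in either comparison. These 4 ratios share the denominator Cd3e, so they are not separate results. In OVA vs. Saline without a minimum, Cd3e was at -1.88 ± 0.37, Lck at -0.21 ± 0.47, Icos at -0.19 ± 0.36 and the median of all genes at -0.47. The share of all genes that rise against Cd3e in this way was not computed.

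For each of these 4 ratios in OVA vs. Saline the two-sided exact permutation test gave p = 0.1, the smallest that 3 against 3 libraries allow, and adjusted p = 0.182 over the 27 ratio tests. For Zap70/Cd3e and Icos/Cd3e in Herb vs. OVA the exact permutation test gave p = 0.0571, the smallest for 3 against 4, with adjusted p = 0.182. None of the ratio tests could pass the threshold in this design. Among the CD3 chains themselves, Cd3g/Cd3e was 1.06-fold in OVA relative to Saline (exact permutation test, p = 0.7, n = 3 against 3), with overlap. Cd3d/Cd3e was 0.589-fold without overlap (exact permutation test, p = 0.1). Foxp3/Cd4 was 0.417, 0.549 and 0.395 in Saline, 1.25, 0.998 and 0.453 in OVA and 0.972, 0.806, 1.07 and 0.477 in Herb. Its groups overlapped, with 1.84-fold in OVA relative to Saline (exact permutation test, p = 0.2). The Cd3e/Ptprc ratio was 0.644-fold in OVA relative to Saline (exact permutation test, p = 0.1), with the limit on Ptprc given above.

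**Figure D3:**
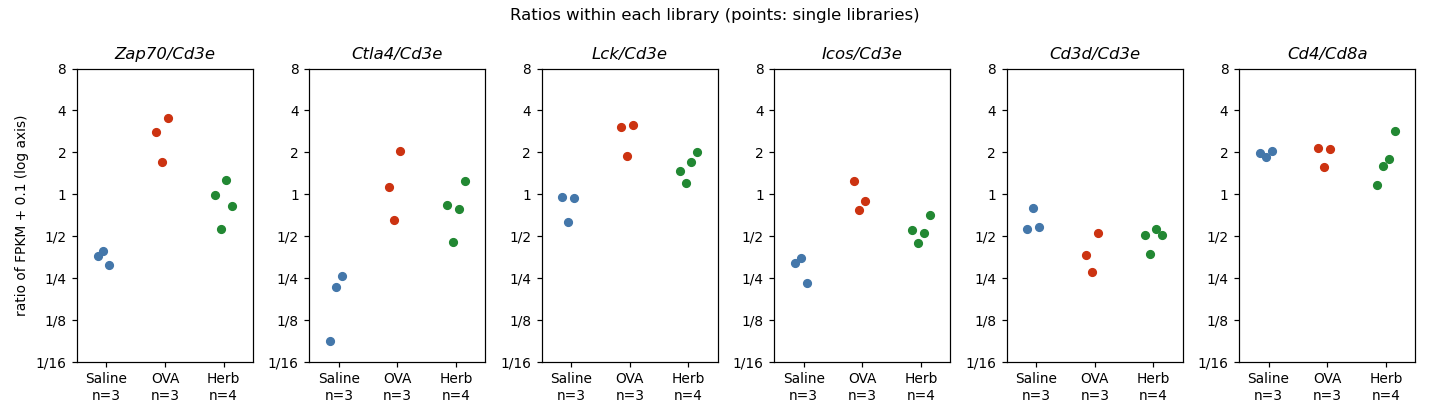
Ratios of FPKM + 0.1 within each library on a log axis (base 2), 1 panel per ratio, with points for the Saline (n = 3), OVA (n = 3) and Herb (n = 4) libraries. For Zap70/Cd3e the Saline points lie at 0.311 to 0.389, the Herb points at 0.560 to 1.27 and the OVA points at 1.70 to 3.54, whereas the groups overlap for Cd4/Cd8a.

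Herb was compared with OVA for the effect of the oral extract. In the planned fit Cd3e was higher in Herb by 0.63 ± 0.22 (limma, adjusted p = 0.0425), while 44.0% of all genes were higher, 0.446% were lower and the median of all genes was 0.48. In the fit without a minimum 2 of the 10 genes were higher in Herb, Cd3d by 1.49 ± 0.37 (adjusted p = 0.0225) and Cd3e by 1.13 ± 0.35 (adjusted p = 0.0470), against 22.0% of all genes. None of the 10 was lower by this test (limma), against 0.279% of all genes, and 3 of the 10 had an unadjusted p under 0.05. Cd3g was at 0.74 ± 0.34 (adjusted p = 0.155). In 3 of the 10 genes, Cd3e, Cd3d and Foxp3, every Herb library was above every OVA library, against 31.7% of all genes, and in 0 every Herb library was below, against 0.759%.

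These Herb vs. OVA calls depended on the scale and on single libraries. Rescaled to the 75th percentile, Cd3d was at 1.07 ± 0.39 (limma, adjusted p = 0.201) and Cd3e at 0.57 ± 0.31 (adjusted p = 0.377). On that scale 0 of the 10 genes were called, 2 had an unadjusted p under 0.05, and 0.149% of all genes were higher and 0.101% lower. Rescaled to the NM_ rows 0 of the 10 were called, 2 had an unadjusted p under 0.05, and 0.139% of all genes were higher and 0.245% lower. Zap70 was at -0.42 ± 0.34 as deposited (adjusted p = 0.421), -1.02 ± 0.35 with the 75th percentile (adjusted p = 0.184) and -1.25 ± 0.35 with the NM_ rows (adjusted p = 0.108). The planned call of Cd3e was lost without Herb replicate 1, 2 or 4, without any OVA replicate or without Saline replicate 1, with adjusted p from 0.0534 to 0.144. In the fit without a minimum, the call of Cd3d was lost without OVA replicate 1 (adjusted p = 0.0724) or OVA replicate 2 (adjusted p = 0.0548). The call of Cd3e in that fit held without Herb replicate 3 or Saline replicate 2 and was lost without any other single library, with adjusted p from 0.0545 to 0.158.

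Herb was last set against Saline, the unchallenged controls. Cd3g was lower in Herb by the planned fit at -0.68 ± 0.18 (limma, adjusted p = 0.0273), while 22.7% of all genes were lower, 3.32% were higher and the median of all genes was -0.27. Cd3g passed the minimum for that fit through its Saline values, which favours a lower call. The call was lost without Saline replicate 2 or 3 or without Herb replicate 3, with adjusted p from 0.0644 to 0.0950. In the fit without a minimum 0 of the 10 genes were called (limma, 3 with an unadjusted p under 0.05), against 6.47% of all genes lower and 1.83% higher. Cd3d was then at -1.15 ± 0.37 (adjusted p = 0.0873), Cd3g at -1.06 ± 0.34 (adjusted p = 0.0835) and Cd3e at -0.75 ± 0.35 (adjusted p = 0.212). In 2 of the 10 genes, Cd3d and Cd3g, every Herb library was below every Saline library, against 22.0% of all genes, and in 1, Foxp3, every Herb library was above, against 7.03%. With the 75th percentile 0 of the 10 were called (limma, 4 with an unadjusted p under 0.05), against 5.83% of all genes lower and 2.44% higher. With the NM_ rows 1 of the 10, Foxp3, was called higher, against 12.6% of all genes higher and 1.21% lower. OVA vs. Saline and Herb vs. Saline share the Saline libraries, and OVA vs. Saline and Herb vs. OVA share the OVA libraries, so the comparisons are not independent of each other.

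The transcript rows of Lck, Ctla4 and Zap70 varied more than the gene sums. Lck was carried by NM_010693, which begins near the downstream start shown above, at 2.51, 1.09 and 2.97 FPKM in Saline, 1.46, 1.68 and 2.72 in OVA and 1.88, 1.83, 1.99 and 0.414 in Herb. In Herb replicate 4 the FPKM was instead assigned to NM_001162433, which begins at the upstream start, 15269 bases from the downstream one, at 4.21 FPKM, against 0 to 0.515 FPKM of that row in the other 9 libraries. Row NM_010693 changed by -0.08 ± 0.34 in OVA vs. Saline (limma over 30194 rows, adjusted p = 0.870). The rows overlap over most of their length, so that the split is an estimate.

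Ctla4 was divided between NM_009843, with 4 exons, and NM_001281976, with 3 exons. The shorter row was listed at 0 in all 3 Saline libraries, at 0.242, 0 and 0.785 FPKM in OVA and at 0.794, 0.577, 0.459 and 1.72 in Herb. Every Herb library had a value for it and 1 OVA library was listed at 0. The longer row was measured at 0.156, 0.327 and 0.902 FPKM in Saline, 0.243, 0.520 and 0.960 in OVA and 0.240, 0.201, 0.413 and 1.19 in Herb. Zap70 was spread over 4 rows, of which NM_009539 held 68.0% of the mean. That row was listed at 0 in Saline replicates 1 and 2, where NM_001289765 and NM_001289766 held the values, so no row of Zap70 was compared alone. The row of Foxp3 that carried its FPKM was NM_001199347, and its other rows were listed at 0 in all 10 libraries.

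**Figure D4:**
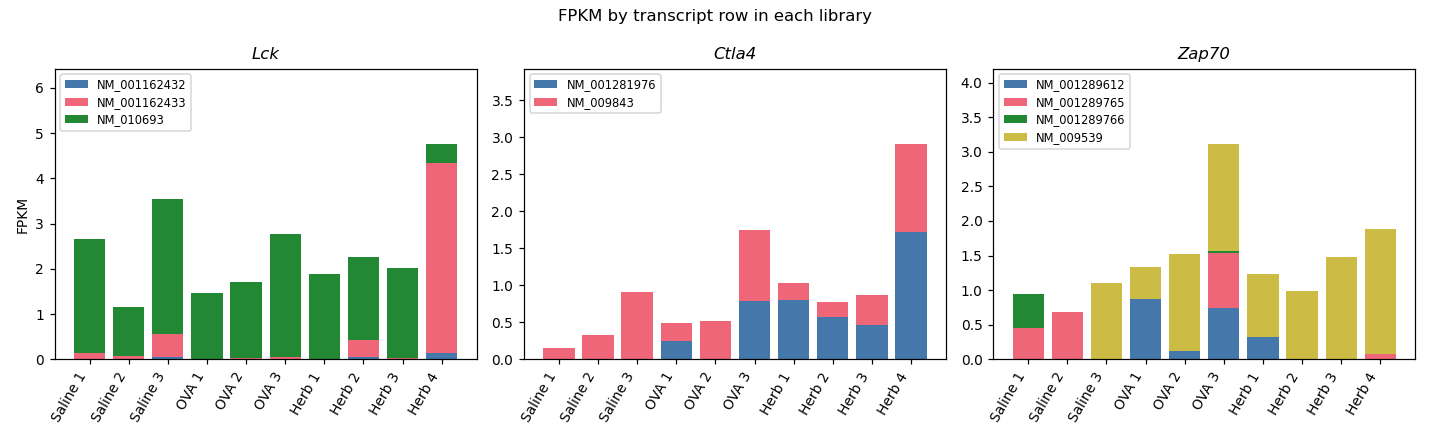
FPKM by transcript row (stacked bars, from 0) of Lck, Ctla4 and Zap70 in each of the 10 libraries. NM_001162433 reaches 4.21 FPKM in Herb replicate 4, and NM_001281976 of Ctla4 is listed at 0 in the Saline libraries and has values in all 4 Herb libraries.

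The rest of the pathway was read from lists of receptor and co-stimulation genes in the fit without a minimum, to be set against the 33.4% of all genes lower and 2.86% higher in OVA vs. Saline and the 22.0% higher in Herb vs. OVA. With the 75th percentile the shares of all genes in OVA vs. Saline were 15.4% lower and 9.55% higher. With the NM_ rows they were 4.71% lower and 27.8% higher. None of the Herb vs. OVA calls in any list was made with the 75th percentile (limma). Of 9 other receptor chains and co-receptors, 4 were lower in OVA vs. Saline (limma), with a median log2 fold change of -1.50 against -0.47 for all genes. They were Cd96 at -2.07 ± 0.27 (adjusted p = 0.000484), the adhesion molecules Cd2 at -1.88 ± 0.43 (adjusted p = 0.00791) and Cd48 at -1.12 ± 0.30 (adjusted p = 0.0178), and Cd8b1, the partner chain of Cd8a, at -1.83 ± 0.48 (adjusted p = 0.0148). With the 75th percentile 1 of the 9, Cd96, was lower, at -1.56 ± 0.27 (adjusted p = 0.00430). Cd2 was measured at 6.45, 4.40 and 7.46 FPKM in Saline, 1.60, 2.70 and 0.828 in OVA and 4.55, 3.99, 2.43 and 5.71 in Herb, so OVA lay below Saline and overlapped with the lowest Herb library. Cd2 was also the 1 gene of this list higher in Herb than in OVA, by 1.31 ± 0.40 (adjusted p = 0.0463), and by 0.72 ± 0.39 with the 75th percentile (adjusted p = 0.380).

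Of 16 tested proximal kinases, adaptors and effectors, 3 were lower in OVA vs. Saline, with a median of -0.51. They were the co-stimulatory receptor Cd28 at -2.13 ± 0.39 (limma, adjusted p = 0.00242), the adaptor Sh2d1a at -2.02 ± 0.70 (adjusted p = 0.0488) and Themis, a T cell signalling protein, at -1.57 ± 0.32 (adjusted p = 0.00431). With the 75th percentile 3 were higher, the adaptors Lat at 1.49 ± 0.43 and Lcp2 at 1.01 ± 0.25 and the exchange factor Vav1 at 1.41 ± 0.25, and Cd28 stayed lower at -1.50 ± 0.37. Of 11 negative regulators of the receptor, 1 was lower in OVA, the adaptor Pag1 at -1.56 ± 0.25 (adjusted p = 0.00130), and Csk, the kinase that inactivates Lck, was higher in Herb than in OVA by 1.01 ± 0.25 (adjusted p = 0.0214). Both calls were lost with the 75th percentile, with Pag1 at -0.80 ± 0.27 (adjusted p = 0.0569) and Csk at 0.40 ± 0.25 (adjusted p = 0.449). On that scale 1 of the 11, Dgkz, was higher in OVA at 2.27 ± 0.60 (limma, adjusted p = 0.0248), against 9.55% of all genes. As deposited Dgkz was at 1.52 ± 0.55 (limma, adjusted p = 0.0602).

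Co-stimulatory and co-inhibitory receptors moved in both directions. Of 8 co-stimulatory receptors, 3 were lower in OVA vs. Saline, namely Cd28, Cd226 at -2.02 ± 0.26 (limma, adjusted p = 0.000529) and Cd27 at -0.89 ± 0.25 (adjusted p = 0.0206). Tnfrsf9, an inducible receptor also called 4-1BB, was higher at 1.72 ± 0.55 (adjusted p = 0.0362). Of 6 co-inhibitory receptors, Btla at -1.77 ± 0.41 (adjusted p = 0.00857) and Cd160 at -1.40 ± 0.40 (adjusted p = 0.0234) were lower and Lag3 at 1.62 ± 0.48 (adjusted p = 0.0276) was higher. Tnfrsf9 was measured at 0.306, 0.0438 and 0.0889 FPKM in Saline, 0.323, 0.714 and 1.05 in OVA and 0.892, 0.428, 0.942 and 1.43 in Herb. Lag3 was measured at 0.222, 0.116 and 0 FPKM in Saline, 0.389, 0.404 and 0.720 in OVA and 0.596, 0.511, 0.666 and 1.25 in Herb. For both genes all OVA and Herb libraries were above all Saline libraries, and both were also higher in OVA with the 75th percentile. The lower calls depended more on the scale. Cd28 and Cd226 were lower with the 75th percentile, while Cd27 at -0.16 ± 0.22 (limma, adjusted p = 0.637), Btla at -1.04 ± 0.40 (adjusted p = 0.0937) and Cd160 at -0.82 ± 0.40 (adjusted p = 0.177) did not pass. With the NM_ rows none of either list was lower by this test, and 3 of the 8 co-stimulatory and 4 of the 6 co-inhibitory receptors were higher. On that scale 27.8% of all genes were higher.

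Of 10 ligands on antigen presenting cells, Pdcd1lg2, a ligand of the inhibitory receptor PD-1, was higher in OVA by 2.29 ± 0.76 (limma, adjusted p = 0.0436), and Cd86 at -0.84 ± 0.28 (adjusted p = 0.0457) and Cd40 at -0.77 ± 0.25 (adjusted p = 0.0375) were lower. With the 75th percentile 3 of the 10 were higher, Cd80, Icosl and Pdcd1lg2, while Cd86 at -0.14 ± 0.23 (adjusted p = 0.694) and Cd40 at -0.01 ± 0.20 (adjusted p = 1) did not pass. With the NM_ rows 6 of the 10 were higher, Cd40 among them, against 27.8% of all genes. Of 7 other regulatory T cell genes 3 were lower in OVA, with a median of -0.68, and the largest change was in Ikzf4 at -1.93 ± 0.39 (adjusted p = 0.00421). The other 2, Lrrc32 at -1.28 ± 0.25 (adjusted p = 0.00319) and Nrp1 at -1.26 ± 0.21 (adjusted p = 0.00152), are also expressed outside T cells. Ikzf4 was lower and Itgae higher with the 75th percentile, and Lrrc32 (adjusted p = 0.118) and Nrp1 (adjusted p = 0.143) did not pass. With the NM_ rows 3 of the 7 were higher, Il2ra, Ikzf2 and Itgae, against 27.8% of all genes. Of 11 lineage transcription factors 5 were lower in OVA, among them Lef1 at -1.23 ± 0.27 (adjusted p = 0.00692), which was at -0.50 ± 0.22 with the 75th percentile (adjusted p = 0.140). Of 6 naive and resting T cell genes 3 were lower, with a median of -1.54. S1pr1, a receptor for exit into the blood that is also abundant in endothelium, was at -3.87 ± 0.73 (adjusted p = 0.00287), Ccr9 at -1.33 ± 0.31 (adjusted p = 0.00806) and Ccr7 at -0.85 ± 0.29 (adjusted p = 0.0461). S1pr1 was lower with the 75th percentile, and Ccr9 (adjusted p = 0.0682) and Ccr7 (adjusted p = 0.833) did not pass.

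**Figure D5:**
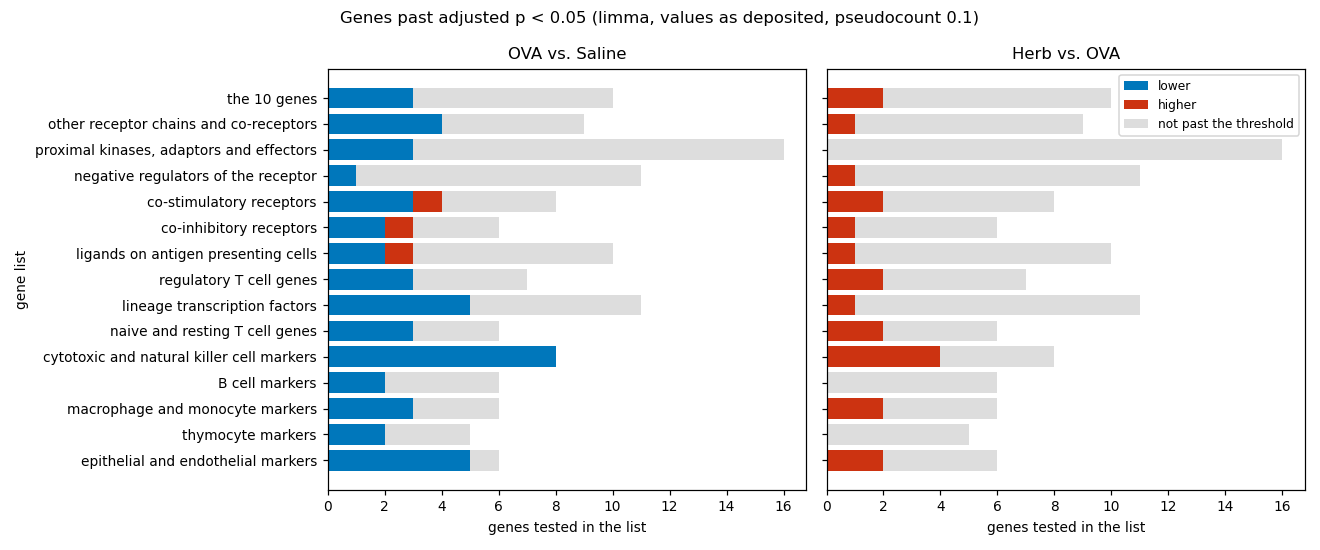
Number of genes tested in each list (bars) that were lower (blue), higher (red) or not past adjusted p under 0.05 (grey) in OVA vs. Saline and Herb vs. OVA, by limma on values as deposited with a pseudocount of 0.1. All 8 cytotoxic and natural killer cell markers are in the lower part in OVA vs. Saline, and no list has a lower gene in Herb vs. OVA.

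Markers of other cell types moved beside the 10 genes, and their part in the results was not tested. All 8 cytotoxic and natural killer cell markers were lower in OVA vs. Saline (limma), from Gzma at -2.77 ± 0.34 (adjusted p = 0.000441) and Nkg7 at -2.55 ± 0.40 (adjusted p = 0.00109) to Ncr1 at -1.40 ± 0.37 (adjusted p = 0.0162), and 5 of the 8 with the 75th percentile. Their summed level was 18.1 to 22.2 FPKM in Saline, 2.10 to 5.59 in OVA and 8.42 to 13.2 in Herb. Of 6 B cell markers 2 were lower in OVA, Ms4a1 at -2.49 ± 0.52 (adjusted p = 0.00488) and Cd79b at -1.91 ± 0.43 (adjusted p = 0.00695), with a summed level of 17.2 to 28.8 FPKM in Saline, 6.76 to 13.1 in OVA and 9.40 to 28.6 in Herb. Ms4a1 was lower and Blk higher with the 75th percentile. Of 6 epithelial and endothelial markers 5 were lower, with a summed level of 16358 to 25940 FPKM in Saline, 2800 to 5434 in OVA and 8394 to 13405 in Herb, and 3 of the 6 were lower with the 75th percentile. Most of that sum was Scgb1a1, the marker not called in this fit, so the sum does not stand for the called markers. Of 6 macrophage and monocyte markers 3 were lower, Lyz2, Csf1r and Cd68, with a summed level of 1178 to 1338 FPKM in Saline, 75.2 to 318 in OVA and 359 to 905 in Herb. Most of this sum was Lyz2, so it does not stand for the list. Csf1r was at 0.0873 to 0.158 FPKM in Saline and listed at 0 in every OVA and Herb library, so its call rests on values near the floor. Adgre1 was at -0.54 ± 0.30 (adjusted p = 0.205) and Itgam at -0.15 ± 0.45 (adjusted p = 0.843) in OVA vs. Saline, at 0.22 ± 0.24 and 0.59 ± 0.43 with the 75th percentile, and both were called higher with the NM_ rows. Adgre1 was measured at 3.52 to 4.33 FPKM in Saline, 1.74 to 3.84 in OVA and 4.70 to 8.52 in Herb. Of 6 thymocyte markers the defining genes were at or near 0, with Rag1 at 0 to 0.0610 FPKM, Rag2 at 0 to 0.0315, Dntt above 0 in 1 library and Ptcra listed at 0 in all 10. Cd1d1 of that list was lower in OVA.

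Outside all lists, the 5 genes whose log2(FPKM + 1) followed the mean profile of Cd3e, Cd3g, Lck and Zap70 most closely over the 10 libraries were Pygb (Pearson's r = 0.941), Tcof1 (r = 0.930), Nupl1 (r = 0.928), Tlr1 (r = 0.926) and Bank1 (r = 0.919). The points share the libraries and their scale, so these values are a description. Pygb was measured at 7.09, 6.26 and 8.26 FPKM in Saline, 3.75, 4.22 and 6.54 in OVA and from 5.37 to 9.60 in Herb, with its highest value in Herb replicate 4.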

How the data were processed

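Lung RNA of 10 libraries (Saline n = 3, OVA n = 3, Herb n = 4, grouped by their titles) had been sequenced on Illumina instruments. The authors trimmed the reads, aligned them to mm10 with HISAT2 and deposited FPKM per transcript read out with ballgown. The submitters' processing notes name cutadapt 1.10 and StringTie 1.3.3b. FPKM carries no scaling between libraries beyond total fragments, so that a shift in RNA composition moves every gene. The study tested counts with a count model. The deposited unit is FPKM and not counts, so limma 3.58.1 in R 4.3.3 was used instead.

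Rows were summed per symbol. The planned fit used lmFit and eBayes with trend on log2(FPKM + 1), all 10 libraries and 3 group means, over 11205 symbols with a mean of at least 1 FPKM. Genes were called at a Benjamini-Hochberg adjusted p under 0.05 over all symbols tested. The fit on log2(FPKM + 0.1) of all 20819 symbols above 0 was added after the levels were seen. In data simulated for OVA vs. Saline (11205 genes), 48% of genes changed by 1 and 78% changed by 2 on the log2 scale were called, and 0.0454% of unchanged genes. Only 100 genes were changed by each amount, up and down alike, with independent normal noise and no shift common to a group. The real groups differed by such a shift, so these shares do not carry over to the calls above. Ratios were log2 of (FPKM + 0.1), tested by two-sided exact permutation. Fragment numbers were estimated from the smallest values and transcript lengths, and cover counting error only. An exact 0 can be a failed estimate. The alternatives were rescaling to the 75th percentile or the NM_ sum, quantile normalization, other filters and pseudocounts, the screen of the study, a replicate block and leaving out each library. Same-numbered libraries did not deviate together (r from -0.0087 to 0.0953 over 9 pairs, -0.170 to 0.227 over 24 other pairs), so numbers were not treated as pairs.

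The 10 genes and all lists were chosen with earlier results of these data known. Named are the 10 genes, up to 4 genes of each list (called with the largest change, otherwise the highest mean) and the 5 genes most like the tested ones. Some list genes are not reported here. Python 3.11.15 with numpy 2.4.6, pandas 2.3.3, scipy 1.17.1 and matplotlib 3.10.9 was used for the other steps.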

Additional observations from a re-analysis of the deposited data

Results flagged for a closer look

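Herb replicate 4 stood apart from the other 3 Herb libraries in 4 of the genes. It held 1.13 FPKM of Cd3d, 1.68 FPKM of Cd4, 4.76 FPKM of Lck and 2.91 FPKM of Ctla4, each separated from the nearest Herb library by more than the critical share of the range of the group in Dixon's test. A total of 19 groups of Herb values were examined in this way, and chance alone marks about 1 in 20. In the same library the B cell markers Ms4a1 (5.39 FPKM), Cd22 (7.13 FPKM) and Cd79a (3.56 FPKM) were higher than in the other 3 Herb libraries. Their part in the T cell values was not tested.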

How the results depend on the processing

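The planned fit tested 4 of the 10 genes. In OVA vs. Saline its call count was 3, with Cd3e and Cd3g lower and Zap70 higher. Of all genes tested 57.9% were lower and 3.28% higher. With the NM_ sum the count fell to 1, Zap70 higher, where 4242 of 11205 genes were higher and 987 lower. In Herb vs. OVA the planned count was 1, Cd3e higher, against 44.0% of all genes higher. It fell to 0 with a replicate block, the NM_ sum, the 75th percentile, quantile normalization and the screen of the study. In Herb vs. Saline the planned count was 1, Cd3g lower, against 22.7% of all genes lower. It fell to 0 under those same settings and with a pseudocount of 0.1. Without a filter, where all 10 genes were tested, it rose to 2. Without a minimum (3, 2 and 0 calls), the NM_ sum gave 5, 0 and 1, and in Herb vs. OVA the 75th percentile and a replicate block gave 0. The 3 calls in OVA vs. Saline were all lower. The 5 with the NM_ sum were Cd3d lower and Zap70, Icos, Ctla4 and Foxp3 higher. On that scale 4.71% of all genes were lower and 27.8% higher. The 1 call in Herb vs. Saline was Foxp3 higher, against 12.6% of all genes higher. Leaving out 1 library gave 0 to 1 planned calls in Herb vs. OVA and in Herb vs. Saline, and 0 to 2 in Herb vs. OVA without a minimum.

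The direction of these log2 differences turned with the scale, in the planned fit for Lck in OVA vs. Saline (0.88 NM_ sum, 0.37 75th percentile, 0.41 quantile), Lck in Herb vs. OVA (-0.33, -0.14, -0.16), Cd3g in Herb vs. OVA (-0.016 NM_ sum, -0.0046 quantile) and row NM_010693 of Lck (0.45, 75th percentile). Without a minimum, the NM_ sum gave in OVA vs. Saline Cd4 0.43, Cd8a 0.27, Lck 1.26, Icos 1.16 and Foxp3 1.23, in Herb vs. OVA Cd3g -0.024, Cd4 -0.16, Lck -0.44, Icos -0.44, Ctla4 -0.20 and Foxp3 -0.21, and in Herb vs. Saline Cd4 0.27 and Cd8a 0.37. The 75th percentile gave Lck 0.54, Icos 0.50 and Foxp3 0.61 in OVA vs. Saline and Lck -0.21 and Icos -0.21 in Herb vs. OVA. The replicate block, in which Herb replicate 4 has no partner and so adds nothing, gave in Herb vs. Saline Lck -0.11 (-0.12 without a minimum) and Icos -0.15. The log2 ratio Cd4/Cd8a turned to 0.13 with 0.01 FPKM added (OVA vs. Saline) and 0.051 with 1 (Herb vs. OVA), and Cd3d/Cd3e to -0.11 with 1 (Herb vs. OVA).

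Leaving out 1 library moved the planned fold change of Lck between -0.48 (without Saline replicate 2) and 0.059 (without Saline replicate 3) in OVA vs. Saline and between -0.19 and 0.35 (the same libraries) in Herb vs. Saline. Without a minimum the same libraries gave -0.66 and 0.11 for Lck in OVA vs. Saline and -0.27 and 0.50 in Herb vs. Saline, Foxp3 in OVA vs. Saline ran from -0.17 (without Saline replicate 2) to 0.070 (without OVA replicate 3), and Icos in Herb vs. Saline from -0.15 (without Herb replicate 4) to 0.31 (without Herb replicate 3). For log2 ratios, the ranges were -0.11 to 0.12 (Cd4/Cd8a, OVA vs. Saline, without OVA replicate 1 or 2), -0.37 to 0.060 (Cd4/Cd8a, Herb vs. OVA) and -0.40 to 0.034 (Cd4/Cd8a, Herb vs. Saline), both without Herb replicate 4 or 1, -0.49 to 0.24 (Foxp3/Cd4, Herb vs. OVA, without OVA replicate 3 or 1) and -0.069 to 0.35 (Cd3g/Cd3e, OVA vs. Saline, without Saline replicate 1 or 2).

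The cause of these turns was not tested. For single genes, rows and ratios, 53 recomputed values turned direction. Of the rest, 48 lost a call, 7 gained one and 750 stayed the same. For genes and rows this means the same direction and side of the threshold, which includes genes called in neither fit. For ratios it means the direction only. Depth limits Cd3d in OVA most.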

Other observations

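Cd247, the zeta chain that completes the receptor complex, was named after its values were seen. It was measured at 1.67, 1.02 and 1.53 FPKM in Saline, 0.114, 0.650 and 0.791 in OVA and 0.637, 1.17, 0.861 and 1.28 in Herb, with every OVA library below every Saline library. Its log2 fold change in OVA vs. Saline was -1.50 ± 0.53 (limma without a minimum, adjusted p = 0.0530) and -0.86 ± 0.51 after rescaling to the 75th percentile (adjusted p = 0.270). Pdcd1, the receptor PD-1, was measured at 0.292, 0.169 and 0.0758 FPKM in Saline, 0.214, 0.305 and 0.654 in OVA and 0.530, 0.398, 0.375 and 1.01 in Herb. Every Herb library of Pdcd1 was above every Saline library, and OVA overlapped with both groups.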
